A study of Mus musculus with 4 samples.

Results

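The nuclear genes of respiratory complexes II to V and of cytochrome c were followed in polysome RNA, that is, messenger RNA carrying several ribosomes. The members were all protein-coding genes of the table whose symbols name a subunit of succinate dehydrogenase (complex II), of the cytochrome bc1 complex (complex III), of cytochrome c oxidase (complex IV, symbols from Cox5 to Cox8) or of ATP synthase (complex V), together with Cyc1 and Cycs. This gave 44 of 18200 genes, with 4 in complex II, 9 in complex III, 13 in complex IV, 17 in complex V and Cycs alone for cytochrome c. The rule reads only the symbols. The symbol pattern does not take Cox4i1, a subunit of complex IV, which is described apart. The libraries came from mouse cells given as ADSCs in the labels, of WT genotype. There were 2 libraries labelled Kd (Ifit1 knocked down by shRNA) and 2 labelled Sc (scrambled control), with library 1 of each label in batch 1 and library 2 in batch 2. The labels do not say whether the libraries of a label came from separate cultures, and the p-values can speak only for the variation among these 4, which may be technical. Total RNA was not analysed here, so more messenger RNA and more ribosomes on it cannot be told apart, nor can fewer cells of a type and less RNA per cell.

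The respiratory chain passes electrons from NADH and succinate to oxygen and pumps protons across the inner mitochondrial membrane, and ATP synthase uses the proton gradient to make ATP. Complex II feeds electrons from succinate into ubiquinone, complex III hands them to cytochrome c, and complex IV passes them to oxygen. Apart from complex II, each enzyme joins subunits encoded in mitochondrial DNA to a larger number encoded in the nucleus, whose messenger RNAs are translated on cytosolic ribosomes. The nuclear genes followed here are of that kind.

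Features of the 4 libraries bear on each result below. Values were FPKM, fragments scaled to gene length and library depth, and they summed to between 680137 and 701936 in the libraries labelled Kd and between 598188 and 616504 in those labelled Sc. Whole fragments could be worked back from FPKM, 37.8 M and 34.7 M in the libraries labelled Kd and 31.1 M and 37.8 M in those labelled Sc. Ifit1, the targeted gene, went against the labels, with 13.9 and 14.8 FPKM in the libraries labelled Kd and 1.93 and 1.91 FPKM in those labelled Sc, so each direction here is that of the labels only. Of 10 markers of mesenchymal stromal cells, all 7 that were tested were called higher in the libraries labelled Kd, against 27.4% of all tested genes. The 10 summed to 100.4 to 101.3 FPKM labelled Kd and 43.7 to 44.3 FPKM labelled Sc. The 7 count Eng, which passed the filter only through the libraries labelled Kd (2.42 and 2.32 FPKM, against 0.956 and 0.924 FPKM labelled Sc). Nt5e and Pdgfra were at or below 0.121 FPKM in each library. Pdgfrb, also below the filter, had 0.909 and 0.791 FPKM labelled Kd and 0.768 and 0.883 FPKM labelled Sc. Pecam1 of endothelium and Epcam and Cdh1 of epithelium were at or below 0.0172 FPKM. Of 5 epithelial markers, the keratins Krt18 and Krt8 were called higher, having passed the filter only through the libraries labelled Kd. Krt18 had 2.84 and 2.94 FPKM labelled Kd and 0.466 and 0.475 FPKM labelled Sc. Krt8 had 2.46 and 2.65 FPKM labelled Kd and 0.275 and 0.283 FPKM labelled Sc. The keratin Krt5, below the filter, had 0 and 0 FPKM labelled Kd and 0.578 and 0 FPKM labelled Sc. Of 7 leukocyte markers 3 were analysed here, and Cd14 was called higher, with 5.85 and 5.99 FPKM labelled Kd and 5.16 and 5.14 FPKM labelled Sc. Cd68, below the filter, had overlapping groups (0.346 and 0.399 FPKM labelled Kd, 0.399 and 0.349 FPKM labelled Sc). Csf1r was at or below 0.0785 FPKM in each library. Of 5 adipocyte markers 4 were analysed here, summing to 2.72 and 2.80 FPKM labelled Kd and 5.76 and 5.79 FPKM labelled Sc. Fabp4 and Pparg were called lower. Pparg passed the filter only through the libraries labelled Sc (0.961 and 0.998 FPKM labelled Kd, 3.02 and 3.15 FPKM labelled Sc). Lpl, below the filter, went the other way (0.294 and 0.321 FPKM labelled Kd, 0.115 and 0.120 FPKM labelled Sc), and Plin1 was at or below 0.0134 FPKM. The part of any of these cell types in the results was not tested. Across the 8750 tested genes, which are not independent, the difference between libraries 1 and 2 labelled Kd ran opposite to that between libraries 1 and 2 labelled Sc (Pearson's r = -0.83, and -0.90 across the 44 members). Library 1 labelled Kd thus lay with library 2 labelled Sc, and library 2 labelled Kd with library 1 labelled Sc, across the batches given in the labels.

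More members were higher than lower in the libraries labelled Kd. Of the 44 members, all of which passed the filter of a mean of 1 FPKM, 25 rose, 5 fell and 14 did not pass limma's test (Benjamini-Hochberg adjusted p under 0.05 over all genes). Of all 8750 tested genes, 27.4% were higher and 41.2% lower, or 68.7% in either direction. The 2 groups did not overlap in 27 members that were higher and 5 that were lower, against 30.1% and 44.4% of tested genes. A called rise of at least 1 on the log2 scale was reached by 6 members and a called fall of that size by 0 (limma), against 4.71% and 4.06% of tested genes. The 25, the 27 and the 6, and the 11 in complex IV, count Cox6b2, which passed the filter only through the libraries labelled Kd. The median log2 change, the libraries labelled Kd minus those labelled Sc on log2(FPKM + 1), was 0.41 over the members (0.50 in batch 1 and 0.41 in batch 2). Over all tested genes it was -0.02 (-0.13 in batch 1 and -0.22 in batch 2). Complex IV had 11 of 13 members higher and 0 lower by limma (0 also with groups that do not overlap), with a median of 0.87. Complex III had 5 of 9 higher and 2 lower (median 0.41), complex II had 2 of 4 higher and 1 lower (median 0.23), and complex V had 6 of 17 higher and 2 lower (median 0.02). Within batches 1 and 2 the medians were 0.07 and 0.38 in complex II and 0.48 and 0.35 in complex III. They were 0.86 and 0.89 in complex IV and 0.33 and 0.17 in complex V. With libraries scaled to equal FPKM sums the medians were 0.22 over the members, 0.04 in complex II and -0.16 in complex V, whose sign also turned after quantile normalization (-0.11). No test compared the complexes with each other or with all genes.

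**Figure D1:**
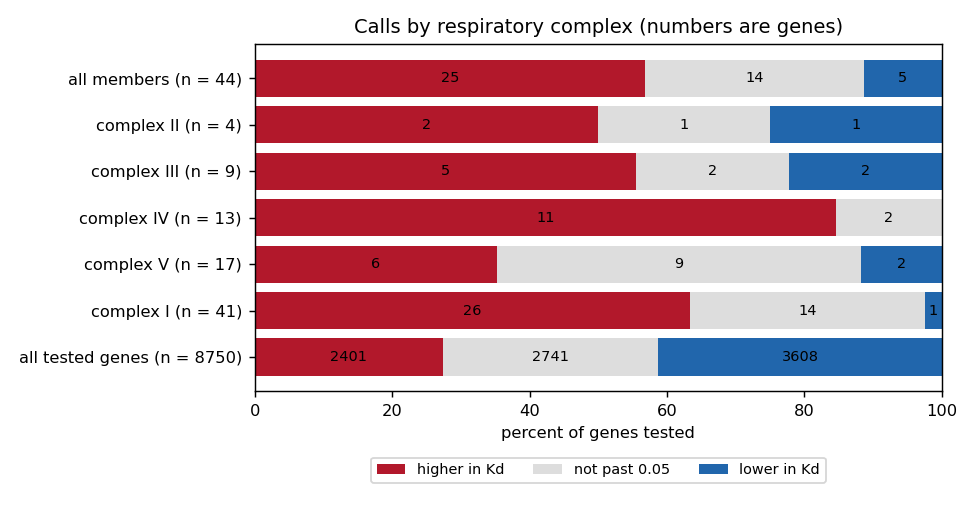
Horizontal bars give the percent of tested genes that were higher, not past an adjusted p of 0.05, or lower in the libraries labelled Kd (limma), for all 44 members, each complex, complex I and all 8750 tested genes, with the number of genes written in each segment. Complex IV has 11 of 13 genes higher and none lower by this test, while 9 of the 17 genes of complex V did not pass. The bar of complex I counts Ndufa4, a subunit of complex IV.

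The summed level of the members was 22914 and 21829 FPKM in the libraries labelled Kd and 15679.9 and 16155 FPKM in those labelled Sc, a ratio of 1.41. As a share of each library's FPKM this was 3.26% and 3.21% labelled Kd, against 2.62% and 2.62% labelled Sc. Both libraries labelled Kd stood above both labelled Sc in the sum. The ratio was 1.70 for complex IV, 1.45 for complex III, 1.28 for complex II and 1.26 for complex V, against 1.14 over all tested genes. It differed with gene length, which is described further below. Under 1000 bases it was 1.60 for the members and 1.33 for all tested genes. From 1000 to under 2000 bases it was 1.06 and 1.07, and from 2000 bases 1.19 and 0.89. As a share of library FPKM, complex V was 1.61% and 1.62% labelled Kd and 1.47% and 1.44% labelled Sc.

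Promoters of the members were searched for known motifs of respiratory chain genes, and the sequences shown are those that hold the site of NRF1, a factor known to drive respiratory chain genes. RefSeq windows (GRCm38.p6) from 250 bases before to 50 bases after the start were matched for 35 of the 44 members, and any window of a gene was counted. The site searched was GCGCA followed directly by its reverse complement TGCGC, which reads the same on both strands. It was in 4 of the 35 members (11.4%), in 2.64% of 7114 tested genes and in 1.07% of 27025 genes with a window. The letters CCGGAAG, the core bound by ETS factors such as Gabpa, on either strand, were in 13 members (37.1%), in 23.6% of tested and in 9.93% of all genes with a window. By call, the NRF1 letters were in 3 of 19 members that rose, 0 of 4 that fell and 1 of 12 that did not pass, and the ETS letters in 7, 0 and 6 of them. A match is a description of letters and not of a bound site, and the motifs do not overlap in the stretches shown. In 3 members the NRF1 letters lie in the 250 bases before the start, printed 5′ to 3′ on the gene's strand in lower case with the matches in capitals: Cox6a1 (chr5:115348959-115349208, minus strand), Atp5g2 (chr15:102671048-102671297, minus strand) and Atp5k (chr5:108434400-108434649, minus strand). Cox6a1 also holds the ETS letters, on the opposite strand, beginning 16 bases before the start. The window of Atp5k holds them too, but not within the 250 bases printed.
Cox6a1: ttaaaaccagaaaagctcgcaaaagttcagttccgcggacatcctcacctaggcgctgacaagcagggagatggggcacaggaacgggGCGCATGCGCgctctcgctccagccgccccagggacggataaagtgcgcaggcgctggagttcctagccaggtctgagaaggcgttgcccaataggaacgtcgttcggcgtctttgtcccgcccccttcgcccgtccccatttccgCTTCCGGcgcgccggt
Atp5g2: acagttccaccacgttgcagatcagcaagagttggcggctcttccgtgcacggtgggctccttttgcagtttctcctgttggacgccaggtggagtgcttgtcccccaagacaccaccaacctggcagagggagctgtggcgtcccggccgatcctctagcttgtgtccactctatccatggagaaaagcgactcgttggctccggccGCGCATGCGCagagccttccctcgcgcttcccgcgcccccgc
Atp5k: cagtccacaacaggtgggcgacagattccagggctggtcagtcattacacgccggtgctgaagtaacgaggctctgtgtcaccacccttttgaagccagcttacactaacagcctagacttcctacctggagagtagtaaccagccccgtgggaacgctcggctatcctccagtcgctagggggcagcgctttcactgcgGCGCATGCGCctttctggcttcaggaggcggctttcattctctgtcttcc
Of these, Cox6a1 rose, Atp5g2 rose except after quantile normalization and with equal FPKM sums, where it did not pass, and Atp5k had overlapping groups.

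Complex II is the one enzyme here with no mitochondrially encoded subunit, and its 4 genes went different ways. Sdha (Entrez 66945), the flavoprotein that oxidises succinate, had 5.67 and 5.79 FPKM in the libraries labelled Kd and 10.95 and 10.86 FPKM in those labelled Sc. It fell by 0.82 on the log2 scale (SE 0.02, limma adjusted p = 1.6e-04), and the groups did not overlap. The error of Sdha from counting fragments alone, 0.05, was above that SE, and its call held where no SE was allowed under the counting error. Sdhb (Entrez 67680), the iron-sulfur subunit that takes the electrons from Sdha, had 412 and 422 FPKM labelled Kd and 301 and 299 FPKM labelled Sc. Sdhb rose 1.39-fold (log2 0.47, SE 0.02, adjusted p = 3.9e-04), so the partners of the catalytic head moved in opposite directions. Sdhc, which anchors the enzyme in the membrane and helps to hold its haem, had 159 and 163 FPKM labelled Kd and 114 and 113 FPKM labelled Sc, a 1.42-fold rise. Its partner in the membrane, Sdhd, had 125 and 154 FPKM labelled Kd and 155 and 127 FPKM labelled Sc, and did not pass (adjusted p = 0.99). The Sdhd groups overlapped, with a log2 difference of -0.31 in batch 1 and 0.27 in batch 2.

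In complex III 4 of 5 small subunits rose, while 1 of 2 core proteins rose and the other fell, and 1 of 2 redox subunits fell. Uqcrc1 and Uqcrc2, the core proteins, are related to mitochondrial processing peptidases. Uqcrc1 had 232 and 236 FPKM labelled Kd and 176 and 175 FPKM labelled Sc, a rise of 0.41 on the log2 scale (SE 0.02, limma adjusted p = 4.5e-04). Uqcrc2 had 55.7 and 56.3 FPKM labelled Kd and 95.6 and 93.2 FPKM labelled Sc, and fell by 0.74 (SE 0.02, adjusted p = 1.9e-04). Both pairs were clear of overlap, in opposite directions. Uqcrfs1, the Rieske iron-sulfur protein, had 190 and 192 FPKM labelled Kd and 212 and 213 FPKM labelled Sc. It fell by 0.15 (adjusted p = 0.0043), but its change was 0.02 after each library was centred on its median (adjusted p = 0.69) and it had adjusted p = 0.054 with batch as a block. It also missed without library 1 or library 2 labelled Sc (adjusted p = 0.063 and 0.070), which leaves 1 lower gene in complex III. Cyc1, the cytochrome c1 that passes electrons on to cytochrome c, had 359.7 and 346.9 FPKM labelled Kd and 327.4 and 344.9 FPKM labelled Sc. It did not pass (log2 0.07, adjusted p = 0.23), though its groups did not overlap, and it was called higher with median-centred libraries.

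Of the 5 small subunits of complex III, which surround the catalytic core, 4 rose. Uqcr11 rose most, with 637 and 609.6 FPKM labelled Kd and 279 and 265 FPKM labelled Sc, 2.29-fold (log2 1.19, SE 0.04, limma adjusted p = 2.2e-04). Uqcrq, which lies beside cytochrome b, had 490.0 and 480.3 FPKM labelled Kd and 251 and 245 FPKM labelled Sc, 1.95-fold. Uqcrb, which takes part in ubiquinone binding, had 449 and 429.5 FPKM labelled Kd and 322 and 336 FPKM labelled Sc, 1.34-fold. In these 3 genes the libraries of a label lay close together and the groups were apart. Uqcrh, the acidic hinge protein between cytochrome c1 and cytochrome c, was less even, with 737 and 628 FPKM labelled Kd and 380.04 and 429.8 FPKM labelled Sc. Its rise of 0.75 (SE 0.12, adjusted p = 0.012) was 0.95 in batch 1 and 0.55 in batch 2, and it did not pass without library 1 labelled Kd (adjusted p = 0.054). Uqcr10, another small subunit in the membrane, had 217 and 99.0 FPKM labelled Kd and 103 and 209.7 FPKM labelled Sc. The Uqcr10 values were thus high in library 1 labelled Kd and library 2 labelled Sc and low in the other two (log2 1.07 in the first batch, -1.08 in the second, adjusted p = 0.997).

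Cycs (Entrez 13063) encodes cytochrome c, the soluble carrier between complexes III and IV, whose release from mitochondria triggers caspases. It had 123.7 and 123.9 FPKM labelled Kd and 93.4 and 93.3 FPKM labelled Sc. The rise of 1.33-fold (log2 0.40, SE 0.02, limma adjusted p = 2.7e-04) was the same in both batches to within 0.01. Cycs, like many genes of this set, has processed pseudogenes that can share its reads, and the sources used here do not give the treatment of shared reads.

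In complex IV most subunits rose together. Among the 9 subunits in their widely expressed forms, 7 rose and 2 did not pass, and the 7 had fold changes from 1.48 to 2.27. Cox6c, a small subunit that crosses the membrane, had 1670 and 1606 FPKM labelled Kd and 733 and 710.4 FPKM labelled Sc (2.27-fold, log2 1.18, SE 0.03, limma adjusted p = 1.8e-04). Cox6a1, one of the genes with the NRF1 letters, had 516 and 505 FPKM labelled Kd and 266 and 257 FPKM labelled Sc (1.95-fold). Every one of the 7 had both libraries labelled Kd above both labelled Sc. Cox7c had 893 and 870.0 FPKM labelled Kd and 481 and 468 FPKM labelled Sc (1.86-fold), and Cox7a2, the form of its subunit outside muscle, had 832 and 831 FPKM labelled Kd and 459 and 449 FPKM labelled Sc (1.83-fold). Cox7b had 473 and 469 FPKM labelled Kd and 269 and 263 FPKM labelled Sc (1.77-fold). Cox6b1, on the side of the intermembrane space, had 849 and 843 FPKM labelled Kd and 493 and 482 FPKM labelled Sc (1.74-fold). Cox5b, the zinc-binding subunit on the matrix side, rose least of the 7, with 624 and 629 FPKM labelled Kd and 427 and 419 FPKM labelled Sc (1.48-fold).

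The remaining widely expressed subunits had overlapping groups. Cox5a, on the matrix side, had 88.2 and 75.1 FPKM labelled Kd and 76.1 and 90.2 FPKM labelled Sc (adjusted p = 0.99 by limma). Cox8a had 1258 and 884 FPKM labelled Kd and 724 and 1014 FPKM labelled Sc (log2 0.30, adjusted p = 0.48), and its change was 0.80 in batch 1 but -0.20 in batch 2. In both genes library 1 labelled Kd and library 2 labelled Sc were the high ones. Cox7a2l, which the rule takes by its name, is a factor that joins complexes III and IV into supercomplexes. It had 166 and 169 FPKM labelled Kd and 148.4 and 147.7 FPKM labelled Sc, a rise of 0.18 (adjusted p = 0.0041) that was -0.01 when the libraries were scaled to equal FPKM sums (adjusted p = 0.94), and it did not pass without library 1 or library 2 labelled Sc (adjusted p = 0.054 and 0.058). Cox4i1, the regulatory subunit outside the symbol pattern, had 1559 and 1574 FPKM labelled Kd and 957 and 942 FPKM labelled Sc, 1.65-fold higher (log2 0.72, SE 0.02, adjusted p = 1.7e-04).

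The tissue forms of complex IV subunits had low levels and were all higher in the libraries labelled Kd. Cox6a2 and Cox7a1 replace Cox6a1 and Cox7a2 in heart and skeletal muscle, and Cox6b2 replaces Cox6b1 in testis. Cox6a2 had 9.73 and 10.02 FPKM labelled Kd and 2.31 and 2.29 FPKM labelled Sc, from 253 and 239 fragments against 49 and 59. It rose 4.30-fold (log2 1.72, SE 0.02, counting error 0.15, limma adjusted p = 1.6e-04). Cox7a1 had 6.12 and 5.29 FPKM labelled Kd and 1.55 and 1.45 FPKM labelled Sc, from 111 and 88 fragments against 23 and 26 (3.80-fold, adjusted p = 6.0e-04). Both muscle forms were apart between the labels by more than the spread within them. Of 9 muscle markers 3 were analysed here, with a summed level of 4.44 and 4.59 FPKM labelled Kd and 3.28 and 3.01 FPKM labelled Sc. Tnnt2 rose with the muscle forms (3.35 and 3.32 FPKM labelled Kd, 1.61 and 1.60 FPKM labelled Sc), Acta1 did not pass (1.10 and 1.25 FPKM labelled Kd, 1.62 and 1.42 FPKM labelled Sc), and Ckm was at or below 0.0439 FPKM. The part of muscle-type cells in these values was not tested. They nonetheless made up a small part of their pairs, since Cox6a2 was 1.85% and 1.95% of the summed FPKM of Cox6a1 and Cox6a2 labelled Kd, against 0.861% and 0.883% labelled Sc. Cox7a1 was 0.730% and 0.632% of its pair with Cox7a2 labelled Kd, against 0.337% and 0.321% labelled Sc. Cox6b2 had 82 and 30 fragments labelled Kd and 0 and 1 labelled Sc, a depth-adjusted ratio of 106 with an exact interval of 18.6 to 4207 (95%, counting error only). Cox6b2 passed the filter only through the libraries labelled Kd, and its adjusted p of 0.028 did not hold with batch as a block (adjusted p = 0.051) or where no SE was allowed under the counting error (adjusted p = 0.28), nor without either library labelled Sc (adjusted p = 0.11 and 0.10).

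**Figure D2:**
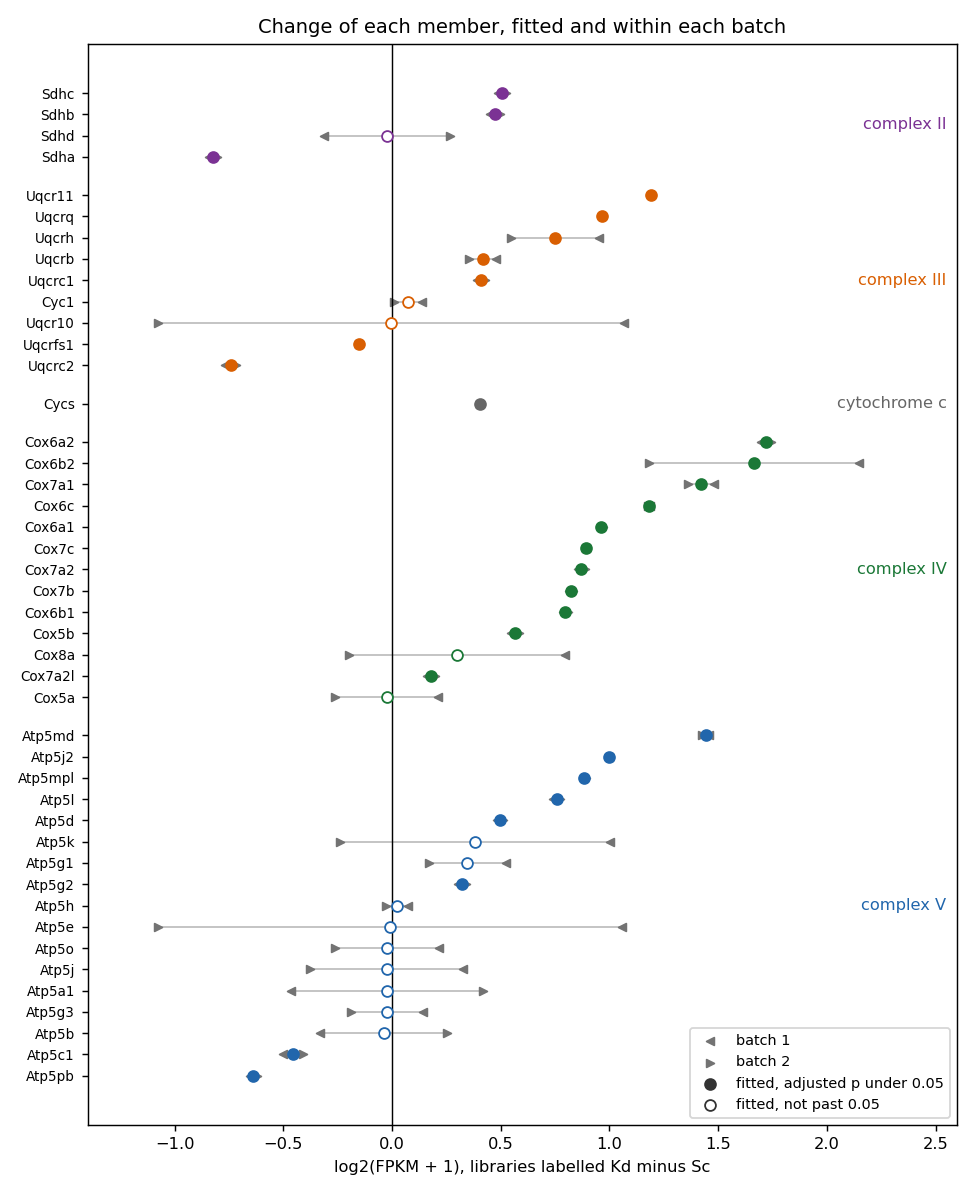
Each row is 1 of the 44 members, ordered by change within its complex; the circle is limma's fitted difference in log2(FPKM + 1), libraries labelled Kd minus Sc, filled where the adjusted p was under 0.05, and the triangles are the differences within batch 1 and batch 2. In filled rows the triangles lie on the same side of 0, while in 12 open rows, Uqcr10 and Atp5e most widely, they lie on opposite sides.

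In complex V the calls are given by position in the enzyme. Of the 5 small membrane subunits of the Fo part, 4 rose and Atp5k did not pass. Atp5md, known as DAPIT and a member of the enzyme's dimer interface, had 1275 and 1186 FPKM labelled Kd and 463 and 441 FPKM labelled Sc. It rose 2.72-fold (log2 1.44, SE 0.05, limma adjusted p = 2.5e-04), the widest change among members above 10 FPKM on average. Atp5j2, the f subunit, had 1885 and 1838 FPKM labelled Kd and 944 and 918 FPKM labelled Sc (2.00-fold). Atp5mpl, a proteolipid of the membrane part, had 407 and 399 FPKM labelled Kd and 221 and 215 FPKM labelled Sc (1.85-fold). Atp5l, the g subunit, which helps to form dimers of the enzyme, had 479 and 477 FPKM labelled Kd and 286 and 278 FPKM labelled Sc (1.69-fold). These 4 genes each had close libraries within a label and no overlap. Atp5k, the e subunit and a partner of Atp5l in dimers, had 436 and 279 FPKM labelled Kd and 217 and 329.6 FPKM labelled Sc (adjusted p = 0.47), with library 2 labelled Sc above library 2 labelled Kd.

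The F1 part, which holds the catalytic sites, gave mixed calls. Atp5b, the catalytic beta subunit, had 1391 and 1711 FPKM labelled Kd and 1749 and 1436 FPKM labelled Sc. Atp5a1, the alpha subunit, had 251 and 343 FPKM labelled Kd and 347 and 256 FPKM labelled Sc. Neither passed (limma adjusted p = 0.99 each), and in both library 2 labelled Kd and library 1 labelled Sc were high. Atp5c1, the gamma subunit that turns inside the head, had 244 and 252 FPKM labelled Kd and 346 and 335 FPKM labelled Sc, and fell by 0.46 (SE 0.03, adjusted p = 0.0010). Atp5d, the delta subunit of the same rotor, had 469 and 474 FPKM labelled Kd and 336 and 332 FPKM labelled Sc, and rose 1.41-fold (adjusted p = 2.5e-04). Atp5e, the epsilon subunit, had 448 and 206 FPKM labelled Kd and 214 and 435 FPKM labelled Sc. Within the rotor, then, gamma fell, delta rose, and the epsilon groups overlapped with changes of 1.06 in batch 1 and -1.08 in batch 2.

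The peripheral stalk, which holds the head still against the rotor, had 0 of 4 genes higher and 1 lower by limma. Atp5pb, the b subunit, had 332 and 340.05 FPKM labelled Kd and 523.2 and 523.2 FPKM labelled Sc, and fell by 0.64 (SE 0.02, adjusted p = 2.1e-04). Atp5o, the subunit that confers sensitivity to oligomycin, had 713 and 608 FPKM labelled Kd and 614 and 729 FPKM labelled Sc, Atp5j 171 and 135 FPKM against 136 and 175 FPKM, and Atp5h 597 and 581 FPKM against 567 and 592 FPKM. These last 3 had overlapping groups, and the call of Atp5h turned with the scaling. It was higher with median-centred libraries (log2 0.20, limma adjusted p = 0.014) and lower after quantile normalization (log2 -0.14, adjusted p = 0.038) and with equal FPKM sums (log2 -0.16, adjusted p = 0.042). The ring of c subunits, which turns as protons pass, is encoded by Atp5g1, Atp5g2 and Atp5g3, whose mature proteins are known to be identical. Atp5g2 had 1324 and 1346 FPKM labelled Kd and 1073 and 1064 FPKM labelled Sc (1.25-fold, limma adjusted p = 8.4e-04). The Atp5g2 log2 change did not pass after quantile normalization (0.11, adjusted p = 0.27) or with equal FPKM sums (0.14, adjusted p = 0.0994). Atp5g1, at 397 and 351 FPKM labelled Kd and 276 and 313 FPKM labelled Sc, did not overlap but had limma adjusted p = 0.061. It was called higher with median-centred libraries. Atp5g3, at 513 and 460.03 FPKM against 465 and 525 FPKM, overlapped. Atp5g2 supplied 59.3% and 62.4% of the 3 genes' summed FPKM labelled Kd and 59.2% and 55.9% labelled Sc.

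**Figure D3:**
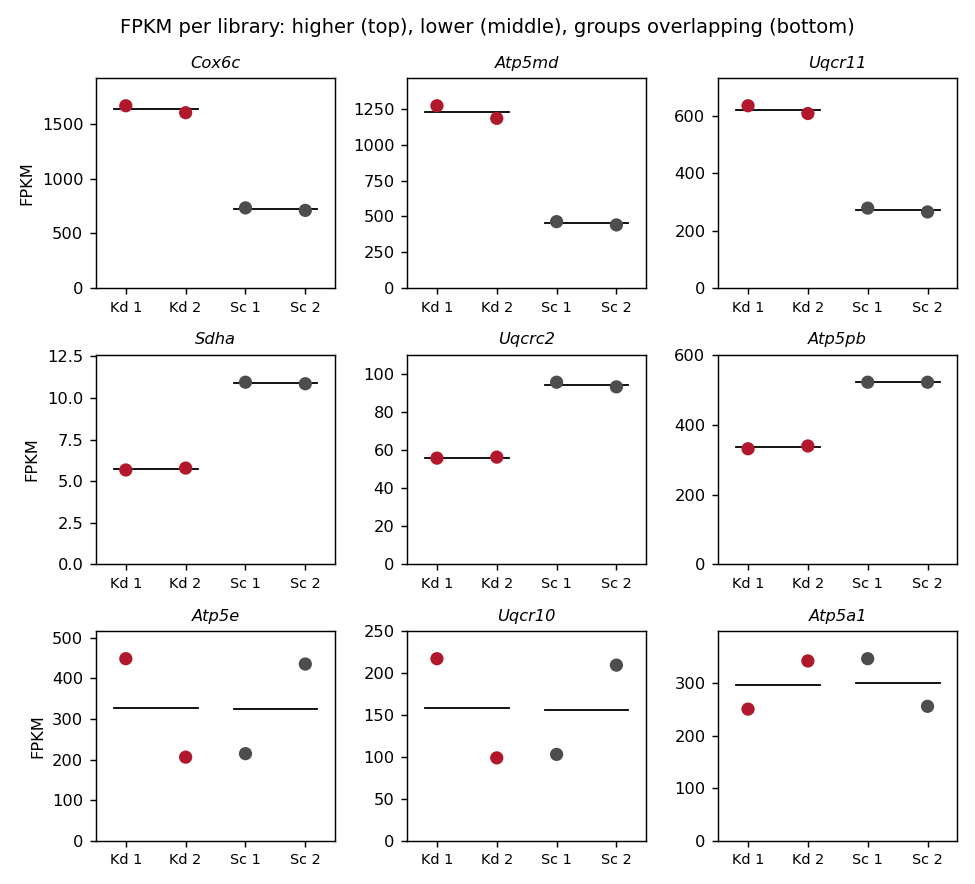
FPKM in each of the 4 libraries for 9 members, with the libraries labelled Kd in red on the left, those labelled Sc in grey on the right, and a line at each mean. In the top row both libraries labelled Kd lie above both labelled Sc (Cox6c at 1670 and 1606 FPKM, against 733 and 710.4 FPKM), in the middle row below them, and in the bottom row library 1 labelled Kd pairs with library 2 labelled Sc.

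The members that did not pass were mostly of one kind, as were all tested genes that did not pass. In 12 of the 14, each library lay nearer to the library of the other label and the other number than to its partner of the same label. These were Sdhd, Uqcr10, Cox5a, Cox8a and, in complex V, Atp5a1, Atp5b, Atp5e, Atp5g3, Atp5h, Atp5j, Atp5o and Atp5k. This arrangement by itself makes the difference between libraries 1 and 2 opposite in sign in the 2 labels. It likewise makes the sign of the change differ between batch 1 and batch 2, so neither is a further finding. The difference between libraries 1 and 2 of a label reached 1.13 on the log2 scale. Among all tested genes that did not pass, 2100 of 2741 (76.6%) had this arrangement. It was in 0 of the 2401 genes called higher and 0 of the 3608 called lower. A gene arranged so can hardly pass the test, so missing the threshold is not a further finding either. The arrangement was in 27.3% of the 44 members and in 24.0% of all tested genes. The 14 members had 1651 to 116338 fragments per library. A p that misses the threshold does not show that a gene was alike in both labels.

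Length moved with these results. The gene length that the FPKM values imply had a median of 647 bases among the 25 members that rose, 1801 bases among the 5 that fell, and 3089 bases over all tested genes. Across genes, as a description, Spearman's rho of log2 change and length was -0.61 over the 44 members and -0.39 over all 8750 tested genes. Of members under 1000 bases, 17 of 24 rose and 0 fell by limma. The 17 count Cox6b2, which passed the filter only through the libraries labelled Kd. Of all tested genes under 1000 bases, 354 of 732 (48.4%) were higher and 65 (8.88%) lower. From 1000 to 2000 bases, 6 of 15 members rose and 4 fell, against 753 (42.6%) and 420 (23.7%) of 1769 tested genes. Among longer genes, Cycs and Atp5d rose and Sdha fell, while Cox5a and Atp5a1 did not pass, against 1294 higher (20.7%) and 3123 lower (49.98%) of 6249 tested genes. The part of length in the members' changes was not tested.

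**Figure D4:**
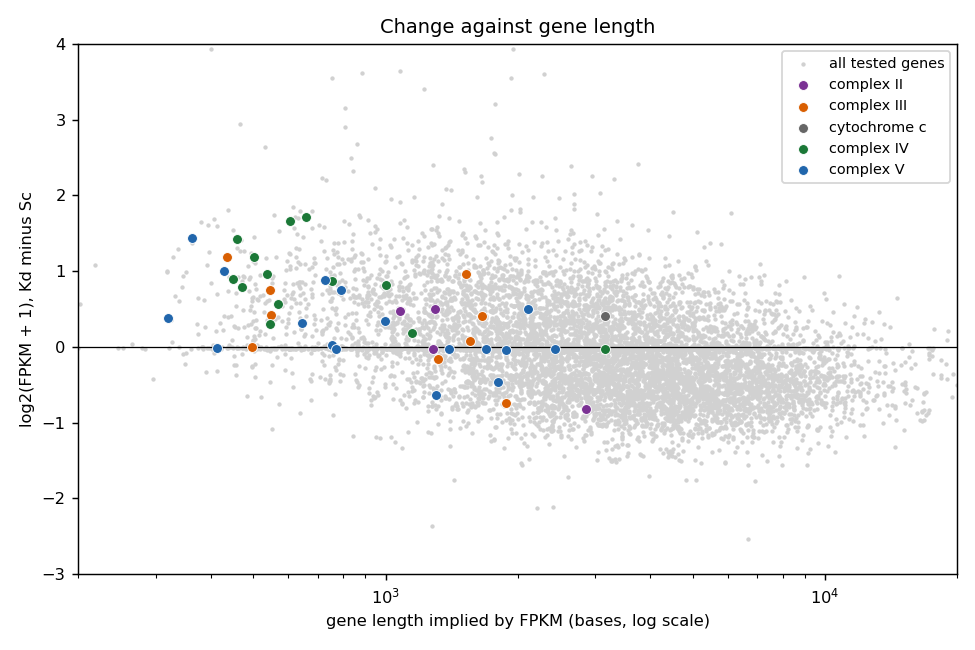
Each point is a gene, with the length implied by its FPKM on a logarithmic horizontal axis in bases and its change in log2(FPKM + 1), libraries labelled Kd minus Sc, on the vertical axis; all tested genes are grey, 25 of them outside the axes, and the members are coloured by complex. Of the 24 members under 1000 bases 17 were higher and 0 lower by limma, and the grey points slope downward with length (Spearman's rho -0.39). The 17 count Cox6b2, which passed the filter only through the libraries labelled Kd.

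Complex I, the NADH dehydrogenase, was set beside the members. Of 41 tested genes named as its subunits, of 42 in the table, 26 were higher and 1 lower, against 27.4% and 41.2% of all tested genes. The median log2 change was 0.41 and the median length 694 bases. Of all tested genes under 1000 bases, 48.4% were higher and 8.88% lower. Ndufc2 had 226 and 225 FPKM labelled Kd and 109 and 107 FPKM labelled Sc, and Ndufs6b had 12.5 and 12.4 FPKM against 6.09 and 5.99 FPKM. The subunit that fell was Ndufs1, the large iron-sulfur subunit, with 4.166 and 4.201 FPKM labelled Kd and 7.95 and 7.73 FPKM labelled Sc. Ndufa4, named for complex I but a subunit of complex IV, is counted in the 41 and the 26. It rose to 874 and 834 FPKM labelled Kd, against 554 and 569 FPKM labelled Sc.

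Factors that assemble complexes II to V went both ways. Of 42 listed genes, 40 were in the table and 39 were tested, of which 15 rose, 7 fell and 17 did not pass (limma; median log2 change 0.05, with 0.46 in batch 1 and -0.10 in batch 2), against 27.4% higher and 41.2% lower of all tested genes. Sdhaf1, which helps to insert iron-sulfur clusters into Sdhb, had 31.4 and 30.9 FPKM labelled Kd and 15.7 and 15.3 FPKM labelled Sc. Sdhaf2, which attaches the flavin to Sdha, had 4.31 and 4.45 FPKM labelled Kd and 9.92 and 10.1 FPKM labelled Sc. Of the other complex II factors, named after their values were seen, Sdhaf3 rose 1.82-fold (adjusted p = 1.7e-04) and Sdhaf4, which also serves Sdha, rose 1.51-fold, with 37.4 and 33.0 FPKM labelled Kd and 22.1 and 24.5 FPKM labelled Sc (adjusted p = 0.013). Cmc4, a small cysteine-rich protein of mitochondria whose gene overlaps Mtcp1 and may share its reads, rose 3.31-fold but passed the filter only through the libraries labelled Kd (2.46 and 2.40 FPKM labelled Kd, 0.737 and 0.734 FPKM labelled Sc), and Cox15, which makes the haem of complex IV, fell by 0.65 on the log2 scale (adjusted p = 1.6e-04 each).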

How the data were processed

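Polysome RNA of 4 libraries was sequenced; per the labels' protocols, bead-captured mRNA was heat-fragmented and reverse transcribed. The authors deposited FPKM values for 18200 genes. The submitters' processing notes name GRCm38, mm10 and GRCm39 without roles, while the sources used here give no aligner, counter, annotation or strandedness. The 8750 genes averaging 1 FPKM or more were compared as log2(FPKM + 1) with limma 3.58.1 in R 4.3.3 (eBayes with trend, no batch term, two-sided, Benjamini-Hochberg, threshold 0.05), with n = 2 per label and 3.06 degrees of freedom. The members and gene lists were chosen with earlier results of these data known. Members were all to be named, and of each list the 2 genes with the smallest p in each direction.

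Whole fragments were solved from ratios of FPKM (relative tolerance 3e-09), which worked for 8749 tested genes, and lengths were scaled to the smallest unit at which 95.7% came out whole. Both steps were run on simulated data, where the solved fragments, but not the lengths, were compared with the simulated ones. They served for depth, length and counting error, which leaves out PCR copies. Over tested genes limma's SE had a median of 0.0208 and the counting error a median of 0.0448, so p-values can be smaller than counting error alone would allow. The replicate number is also the batch in the labels, which pairs the libraries, but same-numbered libraries deviated in opposite directions (r = -0.83). Python 3.11.15, numpy 2.4.6, pandas 2.3.3, scipy 1.17.1 and matplotlib 3.10.9 served for the rest.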

Additional observations from a re-analysis of the deposited data

How the results depend on the processing

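The 25 higher and 5 lower members were 24 and 4 with the replicate block (batch as a term). The block took away Cox6b2 and Uqcrfs1, left 1 lower gene in complex III and changed no other call among the members. With it 25.2% of all tested genes were higher and 39.1% lower. Pairing each library instead with the other number of the other label was an alternative chosen after seeing the data. It gave 29 higher and 6 lower members, 5 lower genes in complex I and 4 higher regulators. Calls also grew over all tested genes, to 33.9% higher and 48.9% lower, against 27.4% and 41.2% without pairing. Median-centred libraries gave medians of 0.15 for all tested genes (2833 higher and 3040 lower), 0.58 for the members and 0.40, 0.58, 1.04 and 0.20 for complexes II, III, IV and V, with 28 higher and 4 lower members, 1 lower gene in complex III and 4 higher regulators; Atp5h was called higher and the Uqcrfs1 log2 change turned to 0.0196. Quantile normalization gave medians of 0.0088 for all tested genes, 0.28 for the members and 0.10, 0.27, 0.70 and -0.11 for complexes II to V. It gave 23 higher and 6 lower members, against 28.8% and 38.4% of all tested genes, and 2 lower genes in complex I. Atp5g2 and Cox7a2l were no longer called, and Atp5h was at -0.14. Equal FPKM sums gave medians of -0.20 for all tested genes, 0.22 for the members and 0.041, 0.23, 0.69 and -0.16 for complexes II to V. They gave 23 higher and 6 lower members, against 21.3% and 45.9% of all tested genes, and 3 lower genes in complex I. The Cox7a2l log2 change was then -0.0051 and that of Atp5h -0.16. A mean of at least 10 FPKM left 1291 higher and 1555 lower genes of 4105 tested, 0 lower genes in complexes II and I, 1 lower assembly factor, 1 lower regulator, and medians of 0.47 in complex II and 0.81 in complex IV, because fewer genes were tested. With no filter 3819 genes were higher. A pseudocount of 5 gave a median of 0.79 in complex IV and took away Cox6b2. Leaving out 1 library at a time, with the lone library taken to vary like the others, gave 23 to 25 higher and 4 to 5 lower members, 1 to 2 lower genes in complex III, and medians from 0.39 to 0.49 for the members, 0.14 to 0.31 in complex II, 0.39 to 0.45 in complex III, 0.10 to 0.31 in complex V and -0.17 to -0.10 over all tested genes. The cause of these shifts was not tested. With 2 libraries a label, n sets the precision of most members. Over the members, counting error had a median of 0.0141 and limma's SE a median of 0.0298. Counting error was above the SE in Sdha (0.051 and 0.018), Cox6a2 (0.154 and 0.0211) and Cox7a1 (0.231 and 0.0778). These 3 genes and Cox6b2 are limited by depth.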

Other observations

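Of 15 listed regulators of respiratory genes, 13 were tested, of which 2 rose, 5 fell and 6 did not pass by limma, with a median log2 change of -0.03, against 27.4% higher, 41.2% lower and a median of -0.02 over all tested genes. Esrra, a nuclear receptor of mitochondrial genes, had 41.1 and 40.8 FPKM in the libraries labelled Kd and 22.3 and 21.8 FPKM in those labelled Sc, and Tfam, which packs and transcribes mitochondrial DNA, had 27.9 and 28.5 FPKM against 21.8 and 21.7 FPKM. Both stood above in each library labelled Kd. Lrpprc, which stabilises mitochondrial messenger RNAs, had 2.67 and 2.71 FPKM labelled Kd and 6.93 and 6.78 FPKM labelled Sc, and the coactivator Pprc1 had 2.62 and 2.67 FPKM against 5.90 and 5.88 FPKM. Nrf1 itself overlapped, with 4.49 and 5.49 FPKM labelled Kd and 5.550 and 4.596 FPKM labelled Sc, and Ppargc1a was at or below 0.0191 FPKM in each library.

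Mitochondrially encoded subunits, which mitochondrial ribosomes translate, were at low levels in this polysome RNA. COX1 had 0.771 and 0.841 FPKM labelled Kd and 1.37 and 1.21 FPKM labelled Sc, and was the only one of the 5 analysed to pass the filter, through the libraries labelled Sc. CYTB had 0.709 and 0.845 FPKM labelled Kd and 0.516 and 0.492 FPKM labelled Sc, and COX2, COX3 and ATP6 were at or below 0.203 FPKM in each library.

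An uneven count of log2 changes stood out after the values were seen. Of 8750 tested genes, 1197 (13.7%) had a log2 change between -0.03 and -0.01, against 117 between -0.05 and -0.03 and 175 between -0.01 and 0.01. Of the members, Atp5a1, Atp5g3, Atp5j, Atp5o, Cox5a and Sdhd were in that band. The FPKM ratio of library 1 labelled Kd to library 2 labelled Sc was from 0.97 to 1 in 1086 tested genes and that of library 2 labelled Kd to library 1 labelled Sc in 1161, against 100 and 130 for the libraries of the same number (batch 1 and batch 2). The cause was not tested.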
